A study of Mus musculus with 15 samples.

Results

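The cerebella compared here came from mice that carry ATXN1[82Q]V591A;S602D and from wild-type mice, 5 libraries each out of the 15 in the series. The libraries were chosen by their genotype labels, and every gene of the count files was followed, 24421 in all, of which 15843 had enough counts to be tested. All mice were of the FVB strain. The transgene is a human ATXN1 with 82 glutamines in its polyglutamine tract and the amino acid changes V591A and S602D, and it is driven by the Pcp2 promoter, which in the cerebellum is active in Purkinje cells. It is called the substituted transgene below. A group of 5 libraries with ATXN1[82Q] under the same promoter and without the substitutions served for side-by-side values. Age and sex are not in the labels. Whether the libraries of a group come from different animals is not in them either, and p-values therefore speak of the scatter among libraries, which may in part be technical.

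Purkinje cells are large inhibitory neurons and the output of the cerebellar cortex. They respond to glutamate through metabotropic receptors that act on G proteins, phospholipase C, the IP3 receptor and calcium stores, and this pathway is unusually abundant in them. Spinocerebellar ataxia type 1 is caused by expansion of the polyglutamine tract of ATXN1, which works in the nucleus in a complex with CIC, a repressor of transcription, and the substitutions lie in the region of ATXN1 that contacts CIC. The comparison with wild type asks what the expanded protein still changes when that contact is weakened.

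Counts on genes ran from 38067915 to 40640811 per library in wild type and from 38468429 to 41480492 with the substituted transgene. Levels are given in CPM, counts scaled to the size of the library, after TMM normalisation. Ttr, which encodes transthyretin and is abundant in the choroid plexus, exceeded 1000 CPM in replicates 1 and 5 of wild type and replicates 2, 3 and 4 of the substituted group, and stayed under 100 CPM in the other 5 libraries. Xist, the X-inactivation transcript, exceeded 1000 CPM in replicates 1 and 3 of wild type and replicates 1 and 4 of the substituted group. Mouse Atxn1 stood at 72.8, 63.9, 66.2, 84.8 and 63 CPM in wild-type replicates 1 to 5 and at 80.5, 87.8, 86.3, 78.7 and 86.3 CPM in those with the substituted transgene. These ranges overlap, and the difference missed the threshold (log2 fold change 0.26, SE 0.0735, edgeR adjusted p = 0.112), although it passed without replicate 4 of wild type (0.0108), with Ttr as a covariate (0.0473) and by DESeq2 (0.0303). The transgene is human, how many of its reads were assigned to mouse Atxn1 is not known, and the transgene level was not measured.

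With the substituted transgene the cerebellum had lower levels of a set of genes that included markers of Purkinje cells, mostly by modest factors. A smaller set had higher levels. At an adjusted p under 0.05 (edgeR quasi-likelihood test, adjusted over all 15843 genes) 190 genes were lower, 1.2% of those tested, and 33 were higher, 0.208%. Together these 223 were 1.41% of the tested genes, and 85.2% of them were lower. Of the 190 lower genes 19 were on a list of 31 Purkinje cell markers and 151 were on none of the 38 gene lists. The lists were written with earlier results of these data known. The median log2 fold change was -0.36 over the lower genes and 0.36 over the higher ones, against 0.00588 over all tested genes. Only 24 of the lower and 9 of the higher genes changed by more than 1.5-fold, and 7 and 4 by more than 2-fold. In 157 of the 190 lower genes every substituted library was below every wild-type library, as in 25 of the 33 higher genes in the other direction. Libraries failed to overlap in 3.16% of all tested genes, and in 2.03% with the substituted libraries lower. The genes called were protein coding in 216 cases and non-coding in 6, and 1 was not found in the annotation.

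**Figure D1:**
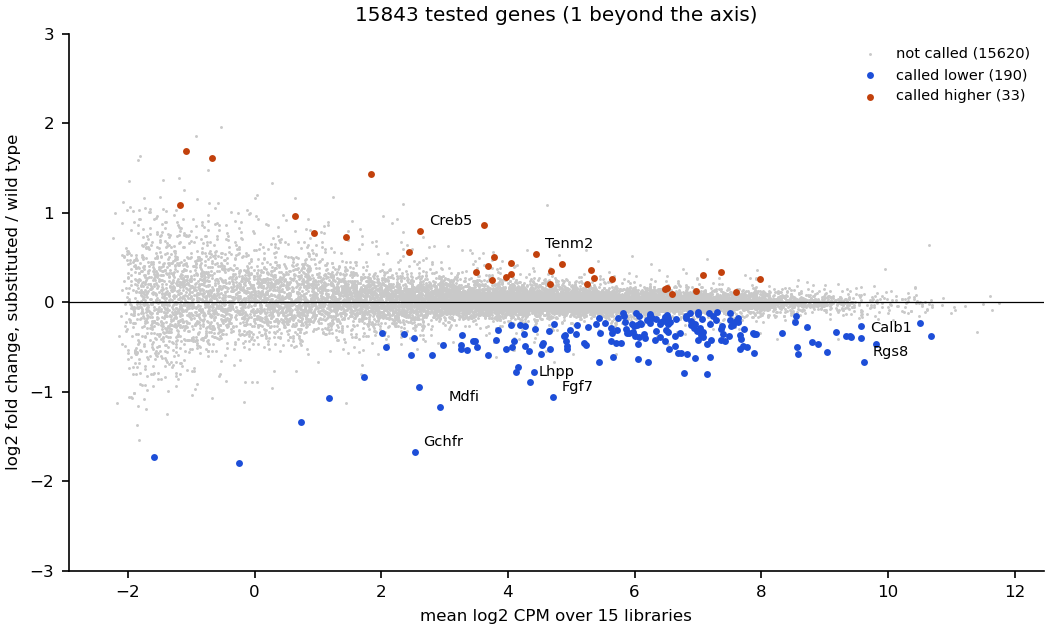
Log2 fold change of the substituted transgene against wild type (vertical axis) by mean log2 CPM over the 15 libraries (horizontal axis), 1 point per tested gene, with genes at an adjusted p under 0.05 coloured (blue lower, red higher) and 1 gene beyond the axis. The 190 lower genes reach into the highly expressed range and most lie between 0 and -1.

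The number of calls rested on which libraries were used. Leaving out replicate 2 or 4 of the substituted group, or replicate 2 of wild type, gave 136, 142 and 143 calls, and without replicate 3 of the substituted group there were 307. Of the 190 lower genes 113 were called whichever single library was left out, and of the 33 higher genes 7 were. In the 5 libraries with Ttr under 100 CPM all 190 and all 33 kept the sign of their change, and 120 and 5 of them were called there. These libraries, 3 of wild type and 2 of the substituted group, are among the 10 that chose the genes. The groups did not overlap in 157 of the 190 and 25 of the 33, so the kept signs say little. DESeq2 called 413 of 15535 genes, or 2.66%, with 311 lower and 102 higher, so that 75.3% of its calls were lower.

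The 5 substituted libraries were not alike. Over the 190 lower genes the median log2 difference from the wild-type mean was -0.51, -0.39, -0.17, -0.42 and -0.31 in replicates 1 to 5, while wild-type libraries lay between -0.03 and 0.04. Replicate 1 was the lowest of its group in 118 of the 190 genes and replicate 3 was the highest in 158. The median SD of log2 CPM over these genes was 0.0722 in wild type and 0.14 with the substituted transgene, and the SD was larger in the substituted group for 162 of them (85.3%). Over all tested genes the medians were 0.101 and 0.0948, and the SD was larger in the substituted group for 46.2%. The 33 higher genes had median differences of 0.47, 0.37, 0.27, 0.39 and 0.37 in replicates 1 to 5, so that replicate 3 was again nearest to wild type and replicate 1 furthest. The labels give no trait of the mice or the libraries that would order these replicates.

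**Figure D2:**
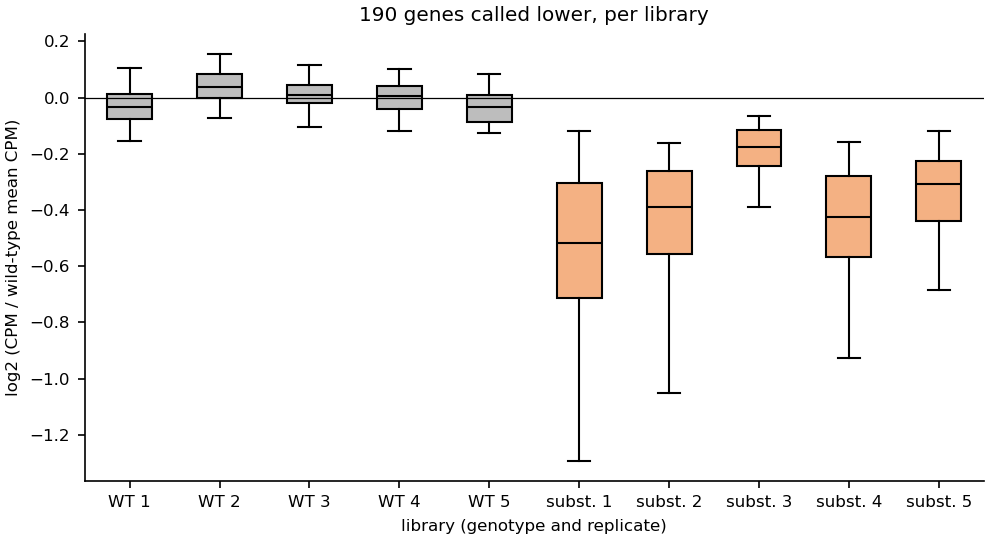
Log2 ratio of CPM to the wild-type mean for the 190 lower genes (vertical axis) in each of the 10 libraries (horizontal axis); boxes show the quartiles and median, and whiskers the 5th and 95th percentiles. Wild-type boxes lie at 0, and the substituted boxes lie lower, with replicate 1 lowest (median -0.51) and replicate 3 nearest to wild type (median -0.17).

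Of 31 markers of Purkinje cells 19 were lower and none was higher, and the median log2 fold change was -0.35. This list was written with earlier results of these data known, so its count is no independent support. The mean of the list relative to wild type was -0.54, -0.38, -0.13, -0.45 and -0.29 in replicates 1 to 5 of the substituted group and lay between -0.08 and 0.07 in wild type, so the groups did not overlap. In 18 of the 19 markers replicate 1 was the lowest substituted library, and in all 19 replicate 3 was the highest. The pair of substituted libraries with high Xist, replicates 1 and 4, had the lowest means, whereas the wild-type pair with high Xist stood at -0.04 and 0.01. The count was 19 with Xist as a covariate and 18 with Ttr as a covariate. Over the libraries with Ttr under 100 CPM it was 18 with a median of -0.48. Of the substituted group these keep only replicates 1 and 5, so they hold the library with the lowest mean and lack replicate 3, the highest. In whole tissue, fewer Purkinje cells and less RNA per Purkinje cell cannot be told apart.

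Among genes of G-protein signalling, Rgs8 and Gng13 of the Purkinje list and Gnai1 outside it were lower. Rgs8 (chromosome 1, 153653025 to 153700323, plus strand, GRCm38), which shortens G-protein signals, stood at 1188, 1326, 1380, 1357 and 1187 CPM in wild-type replicates 1 to 5. With the substituted transgene it stood at 601, 740, 1110, 715 and 876 CPM. All 5 were below wild type, and replicate 3 came within a small distance of it (log2 fold change -0.67, SE 0.115, edgeR adjusted p = 0.00463). Gng13, a G-protein gamma subunit, went from 174 to 195 CPM in wild type to 74, 91.3, 155, 96.5 and 115 CPM (log2 fold change -0.79, adjusted p = 0.00444), but 51.6% of its exon length overlaps Chtf18 and whether counting used strand is not given in the sources used here, which leaves its value uncertain. Gnai1, an inhibitory G-protein alpha subunit, fell less, from 238, 220, 242, 240 and 221 CPM to 196, 195, 208, 197 and 198 CPM (log2 fold change -0.22, adjusted p = 0.0107). These were the 3 lower genes among 23 of the RGS and G-protein list, whose median was -0.02; Rgs8 was the only RGS gene called, and none of the list was called higher by edgeR or DESeq2 (2 at an unadjusted p of under 0.05).

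The pathway from metabotropic glutamate receptors to calcium, a list of 24 genes that shares members with the Purkinje markers, had 12 lower and none higher, with a median of -0.31. The steps after the receptor carried most of the calls. Plcb3 (chromosome 19, 6952325 to 6976470, minus strand), a phospholipase C that makes IP3, stood at 90, 112, 86.5, 86 and 91.5 CPM in wild type and at 46.1, 52, 80.6, 55.8 and 66.8 CPM with the substituted transgene (log2 fold change -0.63, SE 0.113, adjusted p = 0.00616). Itpka, the kinase that phosphorylates IP3, went from 66.7, 68.1, 69.8, 67.4 and 63.6 CPM to 31.7, 36.5, 56.9, 39.4 and 47.4 CPM (log2 fold change -0.66, adjusted p = 0.00945). Inpp5a, a phosphatase that removes a phosphate from IP3, fell 1.27-fold (adjusted p = 0.00462), and Car8, which binds the IP3 receptor and lowers its affinity for IP3, fell 1.38-fold (adjusted p = 0.0025). Itpka and Inpp5a, which act on IP3, and Car8, which acts on its receptor, were thus all lower.

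Calb1 (chromosome 4, 15881264 to 15908064, plus strand), the calcium buffer calbindin, went from 1011, 1045, 1113, 1085 and 994 CPM to 741, 764, 912, 773 and 785 CPM (log2 fold change -0.40, SE 0.0647, adjusted p = 0.00305). Pcp4, which binds calmodulin, went from between 502 and 544 CPM to 320, 354, 440, 360 and 382 CPM (log2 fold change -0.50, adjusted p = 0.00101), with 23.7% of its exon length shared with Igsf5. Itpr1, the IP3 receptor itself, stood at 3379, 4275, 3744, 3990 and 3458 CPM in wild type and 2603, 2892, 3605, 2677 and 3158 CPM with the substituted transgene. Its groups overlapped through replicate 3 and it missed the threshold (log2 fold change -0.34, SE 0.0881, adjusted p = 0.0782), but it passed without that library (0.0105) and by DESeq2 (0.0051).

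Other Purkinje markers that fell were the serine/threonine kinase gene Stk17b (log2 fold change -0.67, adjusted p = 0.00203), the guanine nucleotide exchange factor gene Arhgef33 (-0.63, adjusted p = 0.0025), Fam107b (-0.80, adjusted p = 0.00464) and Dner (-0.44, adjusted p = 0.00167), which encodes a Notch ligand of Purkinje dendrites. Stk17b stood at 111, 116, 125, 118 and 107 CPM in wild type and at 60.1, 68.6, 94.7, 65.3 and 74.1 CPM with the substituted transgene. Dner stood at 584, 604, 601, 616 and 583 CPM in wild type and at 376, 433, 518, 417 and 460 CPM with the substituted transgene. Both kept the order of replicates seen for the whole list, with replicate 1 lowest and replicate 3 highest. The markers that did not pass included Pcp2, the gene whose promoter drives the transgene, at 109, 103, 103, 109 and 105 CPM in wild type and 92.4, 108, 107, 100 and 108 CPM with the substituted transgene (log2 fold change -0.04, adjusted p = 0.829). Its exons overlap Pet100 over 51.5% of their length, so this value is uncertain. Foxp2 (0.24, adjusted p = 0.233), Plcb4 (0.03, adjusted p = 0.893), Ryr1 (-0.04, adjusted p = 0.872) and Skor2 (-0.01, adjusted p = 0.985), chosen after their values were seen, also did not pass.

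Among ion channels the potassium channel list had 5 lower of 27, and none was higher. Kcng4, a modifier subunit of voltage-gated potassium channels, went from between 215 and 243 CPM to 139, 163, 196, 159 and 178 CPM (log2 fold change -0.43, adjusted p = 0.0025). Kcnab1, an auxiliary beta subunit, went from 171, 170, 192, 187 and 165 CPM to 122, 129, 155, 124 and 130 CPM (log2 fold change -0.42, adjusted p = 0.00305). Kcna6 fell 1.35-fold (adjusted p = 0.002; 39.6% of its exon length overlaps another gene) and Kcnip4, which binds the channels of the A-type current, fell 1.19-fold (adjusted p = 0.00809); over the libraries with Ttr under 100 CPM the call of Kcnip4 was lost (0.0566). Kcnip1, of the same family, stood at 76.2, 82.4, 88.6, 86 and 76.6 CPM in wild type and at 59.9, 68.8, 77.3, 66.1 and 68.2 CPM with the substituted transgene, with an overlap through replicate 3. Its call (log2 fold change -0.27, adjusted p = 0.0273) was lost without replicate 1, 2, 4 or 5 of the substituted group or replicate 2, 3 or 4 of wild type (adjusted p from 0.0573 to 0.0823). The median of the potassium channel list was -0.03, near that of all genes.

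Of 15 calcium channel genes 1 was lower, Cacnb2, a beta subunit, at 60.1, 65, 62.3, 66.2 and 57.9 CPM in wild type and 47.6, 47.7, 54.8, 45.8 and 50.6 CPM with the substituted transgene (log2 fold change -0.34, adjusted p = 0.00283). edgeR called none of 9 sodium channel genes, with 4 lower and 0 higher at an unadjusted p under 0.05 and 0 called by DESeq2. Of 31 glutamate receptor and transporter genes 1 was lower, the kainate receptor gene Grik1, which went from 30.1, 36.2, 32.3, 30.4 and 32.3 CPM to 19.4, 19.4, 24.9, 20.9 and 23.3 CPM (log2 fold change -0.58, SE 0.0701, adjusted p = 0.000943). Of 24 genes of GABA and glycine transmission 1 was lower, the GABA-B receptor gene Gabbr1, from 853, 919, 911, 903 and 841 CPM to 588, 659, 817, 637 and 699 CPM (log2 fold change -0.38, adjusted p = 0.00446). The synaptic vesicle list likewise had 1 lower of 28, the calcium sensor gene Doc2b, which fell 1.44-fold (adjusted p = 0.00294). In each of the lists with a call edgeR called 1 gene, in the direction of the Purkinje markers, and the list median lay between -0.03 and 0.00075. At an unadjusted p under 0.05, 2 calcium channel genes were higher and 3 lower. These counts were 3 and 6 for glutamate, 3 and 4 for GABA and glycine, and 3 and 4 for synaptic vesicles. DESeq2 called 2 calcium channel genes higher and 2 lower, and none higher in the other lists.

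At a mean log2 CPM of at least 2, the 5 largest falls were in genes outside the Purkinje list. Gchfr (chromosome 2, 119167773 to 119172390, plus strand), the feedback regulator of GTP cyclohydrolase I, the first enzyme of tetrahydrobiopterin synthesis, stood at 13.1, 11.3, 11.5, 11.6 and 11.4 CPM in wild type. With the substituted transgene it stood at 1.81, 2.32, 6.11, 3.37 and 4.96 CPM, a 3.18-fold fall (log2 fold change -1.67, SE 0.231, edgeR adjusted p = 0.00167). It was the only gene called among 8 of the tetrahydrobiopterin pathway. The gene of its target enzyme, Gch1, had a log2 fold change of -0.11 (adjusted p = 0.865).

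Mdfi (chromosome 17, 47815328 to 47834691, minus strand), an inhibitor of MyoD-family transcription factors, went from 13.8, 9.89, 13.4, 11.3 and 12.3 CPM to 3.74, 4.05, 7.68, 6.19 and 5.35 CPM (log2 fold change -1.17, SE 0.161, adjusted p = 0.00167). Fgf7 (chromosome 2, 126034658 to 126091185, plus strand), a secreted growth factor that in the brain organises inhibitory synapses, went from 45, 47.3, 51, 52.8 and 44.7 CPM to 12.3, 22.2, 40.9, 18.6 and 21.8 CPM (log2 fold change -1.06, SE 0.208, adjusted p = 0.0127). The fall of Fgf7 ranged over the replicates more widely than that of Mdfi, with replicate 3 just under the wild-type range. Lhpp (chromosome 7, 132610638 to 132706420, plus strand), a phosphohistidine phosphatase, had the smallest adjusted p of the named genes: it went from 30.7, 28.6, 28.7, 26.1 and 27.7 CPM to 14.6, 13.2, 16.9, 15.7 and 15.9 CPM (log2 fold change -0.89, SE 0.0869, adjusted p = 0.000163). In Lhpp the substituted libraries lay close together, and replicate 1 was not the lowest of them.

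At a mean log2 CPM of at least 2, the other large falls outside the Purkinje list were smaller than 2-fold. Syt6, a synaptotagmin, went from between 8.62 and 12.4 CPM to between 4.23 and 6.26 CPM (log2 fold change -0.94, adjusted p = 0.0118), and its call was lost over the libraries with Ttr under 100 CPM (0.155). Dap went from between 25.3 and 29.4 CPM to 10.8, 14.6, 22.4, 15.1 and 17.1 CPM (log2 fold change -0.77, adjusted p = 0.00442), and the sulfotransferase gene Chst8 from between 25 and 27.1 CPM to 12.2, 14.5, 21, 16.2 and 16.4 CPM (-0.72, adjusted p = 0.00405). Trabd2b, a metalloprotease that acts on Wnt proteins, had a log2 fold change of -0.77 (adjusted p = 0.0192), and its call was lost without replicate 2 or 4 of the substituted group or replicate 2 of wild type (0.0695, 0.0659 and 0.0671). The calls of the 14 other genes among the 15 largest falls were kept whichever library was left out.

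Of the FGF family 2 genes of 20 were lower, Fgf7 and Fgf11, an intracellular member that fell 1.32-fold (adjusted p = 0.0025), and 1 was higher, the receptor gene Fgfr1. Fgfr1 stood at 232, 228, 246, 228 and 200 CPM in wild type and at 283, 281, 266, 262 and 263 CPM with the substituted transgene (log2 fold change 0.26, adjusted p = 0.0154). Its call was lost without replicate 1 or 2 of the substituted group (0.0514 and 0.0565).

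Some further genes changed by a large factor but lie outside the rule for named genes, through low counts or, for Coch, through overlap of the groups, and were chosen after their values were seen. Ostn, which encodes the secreted peptide osteocrin, stood at 2.06, 1.61, 1, 1.23 and 2.09 CPM in wild type and at 0.421, 0.122, 0.836, 0.415 and 0.519 CPM with the substituted transgene (log2 fold change -1.79, SE 0.328, adjusted p = 0.00747). Nlrp10, of the NOD-like receptor family, went from 3.06, 3.2, 3.77, 2.75 and 3.15 CPM to 1.29, 1.05, 1.78, 0.907 and 1.3 CPM (log2 fold change -1.33, SE 0.208, adjusted p = 0.00253). Both calls were kept whichever library was left out, and over the libraries with Ttr under 100 CPM that of Ostn was lost (0.0915). The calls of Tmprss2 (log2 fold change -1.73) and Cdc20 (-1.07) were lost without single libraries: that of Tmprss2 without any except replicate 3 of the substituted group and replicate 2 of wild type (0.0696 to 0.126), and that of Cdc20 without replicate 2 or 4 of the substituted group or replicate 1, 2 or 4 of wild type (0.0687 to 0.0998). Coch, the gene of the extracellular protein cochlin, was higher, at 6.05, 7.01, 5.74, 5.16 and 8.38 CPM in wild type and 14.7, 11.6, 8.3, 12.9 and 11.2 CPM with the substituted transgene (log2 fold change 0.86, SE 0.138, adjusted p = 0.00291). Its ranges met at replicate 3 of the substituted group and replicate 5 of wild type, and its call was kept whichever library was left out.

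**Figure D3:**
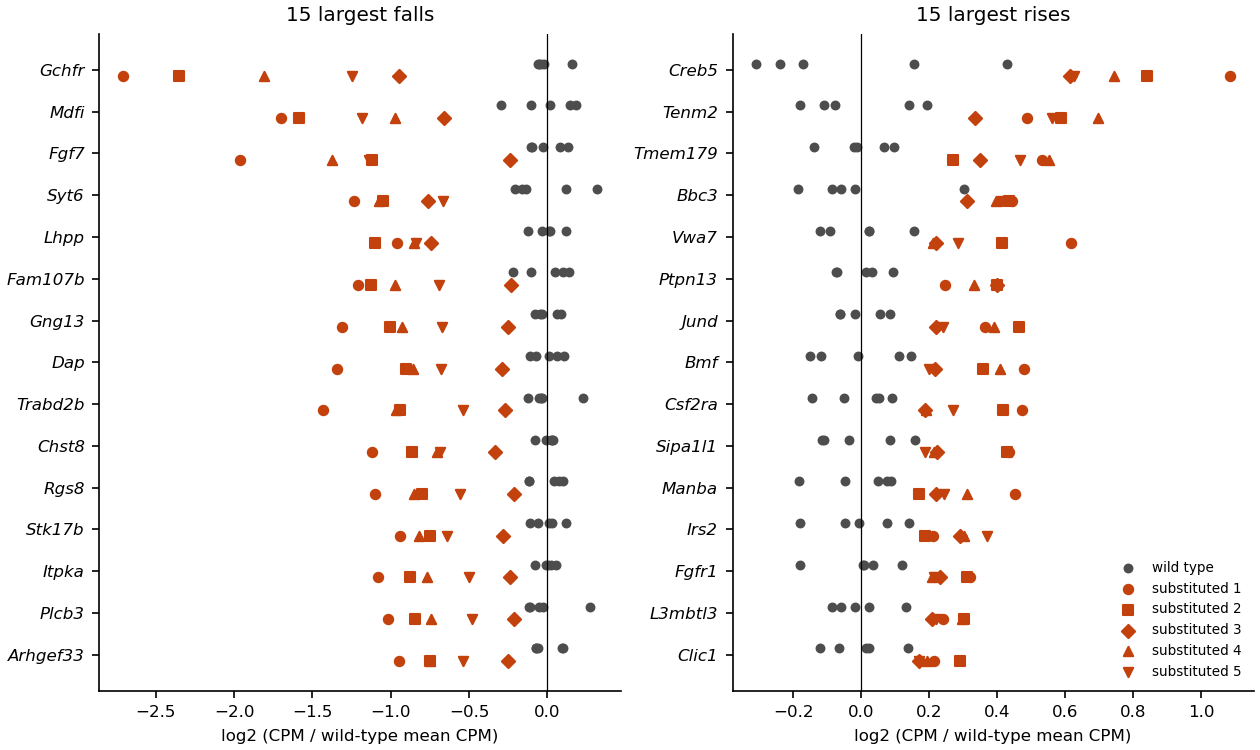
Log2 ratio of CPM to the wild-type mean (horizontal axes) for the 15 largest falls and 15 largest rises (vertical axes), with 1 point per library: grey circles are wild type and red symbols are substituted replicates 1 to 5. Replicate 1 (circle) is often furthest from wild type and replicate 3 (diamond) nearest among the falls, and Lhpp is an exception.

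Among the rises, Creb5 (chromosome 6, 53287270 to 53700376, plus strand), a transcription factor of the CRE-binding family, went from 3.57, 3.73, 4.69, 5.67 and 3.4 CPM to 8.93, 7.53, 6.45, 7.05 and 6.49 CPM (log2 fold change 0.79, SE 0.142, adjusted p = 0.00656). Tenm2, a teneurin that joins cells at synapses, went from 15.1, 14.4, 15.5, 18.7 and 18 CPM to 22.9, 24.6, 20.6, 26.5 and 24.1 CPM (log2 fold change 0.54, SE 0.0827, adjusted p = 0.0025). Both separated the groups completely. The proapoptotic gene Bbc3, which encodes PUMA, went from 12.5, 10, 9.59, 8.94 and 9.77 CPM to 13.8, 13.8, 12.6, 13.4 and 13.6 CPM (log2 fold change 0.40, adjusted p = 0.0129), and the tyrosine phosphatase gene Ptpn13 from 21.5, 20.3, 20.2, 22.7 and 21.8 CPM to 25.3, 28.1, 28.1, 26.8 and 28 CPM (0.36, adjusted p = 0.00147). Tmem179, a membrane protein gene, had a log2 fold change of 0.44 (adjusted p = 0.0107). The calls of these 5 were kept whichever library was left out, while over the libraries with Ttr under 100 CPM those of Creb5 (0.146), Tenm2 (0.06) and Ptpn13 (0.156) were lost.

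The other 10 of the 15 largest rises changed by 1.16-fold to 1.28-fold, and each call was lost without at least 1 single library. Without replicate 2 of the substituted group the calls of Vwa7 (adjusted p = 0.0596), Jund (0.116), Csf2ra (0.135), Sipa1l1 (0.119), Fgfr1 (0.0565), L3mbtl3 (0.0768), Clic1 (0.135) and Bmf (0.0882) were lost. Vwa7 was lost also without replicate 4 of wild type (0.0576). Irs2, the insulin receptor substrate, was lost without replicate 4 or 5 of the substituted group or replicate 4 of wild type (0.0605, 0.0645 and 0.0626). The lysosomal enzyme gene Manba was lost without any library other than replicates 2 and 3 of the substituted group and replicate 1 of wild type (0.0539 to 0.116). Bmf, which like Bbc3 encodes a BH3-only protein of the cell death pathway, had values from 8.11 to 9.97 CPM in wild type and 10.3 to 12.5 CPM with the substituted transgene, a narrow separation. Its call was lost also without replicate 1 or 4 of the substituted group or replicate 2, 4 or 5 of wild type (0.0847 to 0.101). Sipa1l1 was lost also without replicate 1 of the substituted group or replicate 1, 2 or 5 of wild type (0.0853 to 0.0996). Jund was lost without replicate 1 or 4 of the substituted group or any wild-type library except replicate 1 (0.0539 to 0.096). L3mbtl3 was lost without replicate 1 or 4 of the substituted group or any wild-type library except replicate 3 (0.052 to 0.0788). Csf2ra was lost without replicate 1 or 5 of the substituted group or any wild-type library except replicate 1 (0.0690 to 0.114). Clic1 was lost without replicate 1, 4 or 5 of the substituted group or any wild-type library except replicate 4 (0.0607 to 0.123).

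Markers of other cell types showed few calls. edgeR called none of 19 granule cell markers (at an unadjusted p under 0.05, 4 were higher and 1 lower; DESeq2 called none), and their mean ran from -0.07 to 0.14 in wild type and from -0.06 to 0.10 with the substituted transgene. None of 18 oligodendrocyte markers was called (none at an unadjusted p under 0.05 and none by DESeq2). Of 21 microglial markers edgeR called none, 6 were higher at an unadjusted p under 0.05, DESeq2 called 1 higher, and 20 of the 21 had a positive log2 fold change, with a median of 0.12. The microglial mean was 0.14, 0.23, 0.11, 0.15 and -0.03 in substituted replicates 1 to 5 and -0.09 to 0.08 in wild type. The groups overlapped through replicate 5 alone, and the marker with the smallest p was the complement gene C1qa (log2 fold change 0.23, edgeR adjusted p = 0.0712).

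In a pair of lists of glial response genes the unweighted mean of log2 levels separated the groups, but their summed levels overlapped. The pair was chosen after the list means were seen. Such a mean gives genes of very low level, such as Ch25h, the same weight as the others. Of 20 genes of disease-associated microglia 1 was called higher by edgeR (Ch25h, described below), 6 were higher and none lower at an unadjusted p under 0.05, DESeq2 called 2 higher, 1 log2 fold change was negative, and the median was 0.13. Their mean was 0.35, 0.38, 0.22, 0.30 and 0.18 in substituted replicates 1 to 5 and -0.21 to 0.18 in wild type, so that substituted replicate 5 lay just above wild-type replicate 5 (0.1799 and 0.1786), and their summed level was 2206 to 2502 CPM in wild type and 2332 to 2627 CPM with the substituted transgene. Of 16 genes of reactive astrocytes edgeR called none higher and 1 lower (H2-D1, described below), 4 were higher and 1 lower at an unadjusted p of under 0.05, DESeq2 called 2 higher and 1 lower, 2 log2 fold changes were negative, and the median was 0.17. Their mean was 0.15, 0.28, 0.14, 0.28 and 0.21 in substituted replicates 1 to 5 and -0.15 to 0.11 in wild type, with summed levels of 630 to 692 CPM and 559 to 651 CPM. The part of these lists in the other results was not tested. Gfap, the astrocyte filament gene, chosen after its values were seen, came nearest to a higher call (log2 fold change 0.36, edgeR adjusted p = 0.0537).

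The summed level of the 21 microglial markers was 225 to 261 CPM in wild type and 238 to 283 CPM with the substituted transgene. Choroid plexus and ependymal markers had a median log2 fold change of 0.50 with no call among 20 (0 at an unadjusted p under 0.05 and 0 by DESeq2); their summed level ran from 227 to 6258 CPM in wild type and from 313 to 5807 CPM with the substituted transgene, following the libraries with high Ttr. Of 16 interneuron markers 1 was lower, Prkcd, a protein kinase C, at 131, 152, 119, 124 and 127 CPM in wild type and 115, 103, 112, 109 and 115 CPM with the substituted transgene (log2 fold change -0.24, adjusted p = 0.0385). The call of Prkcd was lost when any 1 library other than the wild-type replicates 3 and 4 was left out (0.0512 to 0.13). Of 19 Bergmann glia and astrocyte markers edgeR called 1 lower, Aldoc, an aldolase that in the cerebellum also marks stripes of Purkinje cells as zebrin II. In this list 6 log2 fold changes were negative, and the median was 0.05. At an unadjusted p under 0.05, 3 were higher and 3 lower, and DESeq2 called 1 higher and 1 lower. Aldoc went from 2088, 2229, 1967, 1870 and 1985 CPM to 1355, 1471, 1828, 1485 and 1680 CPM (log2 fold change -0.37, edgeR adjusted p = 0.0192). Its call was lost without replicate 1, 2 or 4 of the substituted group (0.0562, 0.0702 and 0.0608) or replicate 2 of wild type (0.0686).

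**Figure D4:**
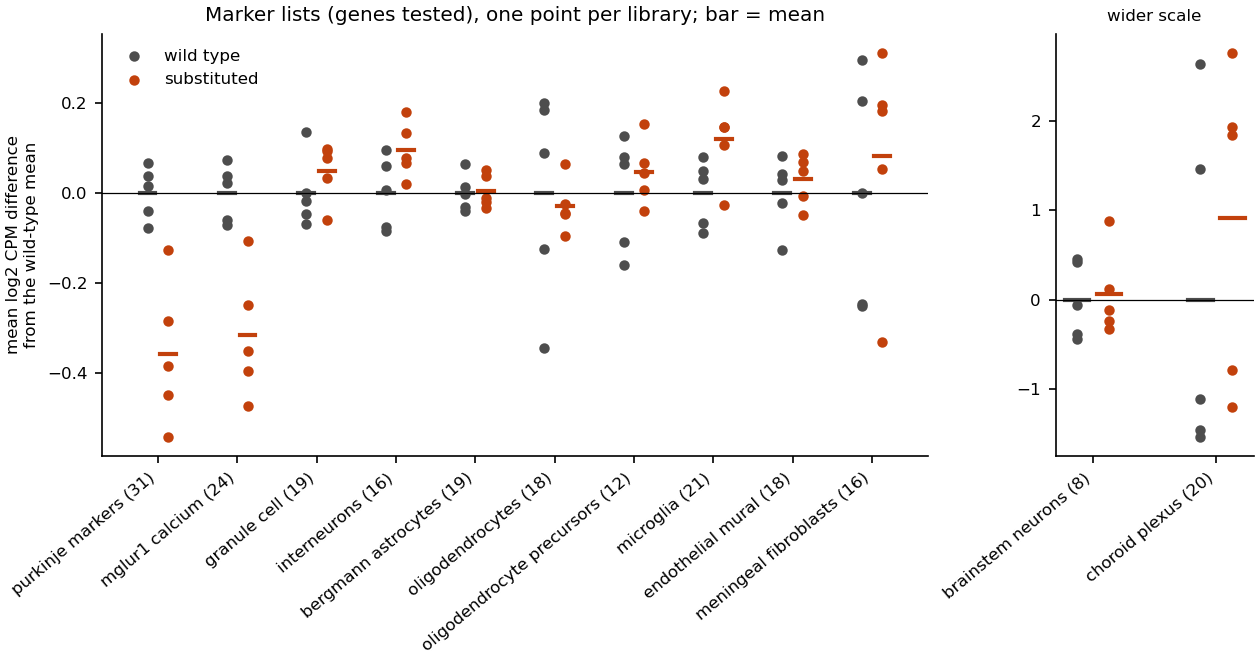
Mean log2 CPM of each marker list relative to the wild-type mean (vertical axis) for each list (horizontal axis, number of tested genes in brackets), 1 point per library and a bar at the group mean; brainstem and choroid plexus lists have a wider scale. The groups do not overlap for the Purkinje and the metabotropic glutamate and calcium lists, and overlap for the other 10 lists drawn.

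Aldoc was 1 of 4 lower genes among 16 that form stripes of Purkinje cells; the others were Plcb3, Fam107b and the GABA-B receptor partner Kctd12 (log2 fold change -0.52, adjusted p = 0.0141), whose call was lost without replicate 2 or 4 of the substituted group (0.0565 and 0.0504) and of whose exon length 64.2% overlaps another gene. Plcb3 and Aldoc are known from the zebrin-positive stripes and Plcb4 from the zebrin-negative ones. Plcb4 did not pass (0.03, adjusted p = 0.893). Ebf2 (-0.42, adjusted p = 0.108), Gabbr2 (-0.28, 0.0794) and Slc1a6 (-0.19, 0.19), chosen after their values were seen, did not pass either. DESeq2 called 6 of the 16 lower and 0 higher, and 9 log2 fold changes were negative. Whether the kinds of stripe differed was not tested. Of 21 transcription factors of Purkinje cells 2 were lower: Rora, a nuclear receptor needed for their maturation, and Lhx1. Rora stood at 408, 468, 441, 441 and 429 CPM in wild type and at 372, 365, 412, 349 and 373 CPM with the substituted transgene (log2 fold change -0.23, adjusted p = 0.0194), and the groups overlapped through replicate 3. Its call was lost without replicate 1, 2 or 4 of the substituted group or replicate 2 or 4 of wild type (0.052 to 0.0682). Lhx1 had a log2 fold change of -0.25 (adjusted p = 0.0366) and its call was lost without replicate 1, 2 or 4 of the substituted group or any of replicates 2 to 5 of wild type (0.0724 to 0.116). Lhx1os, a non-coding gene next to Lhx1 that was chosen after its values were seen, stood at 33.7, 35.2, 32.6, 32.6 and 33.5 CPM in wild type and at 17.9, 22.7, 27.3, 23.2 and 25.8 CPM with the substituted transgene (log2 fold change -0.52, SE 0.0975, adjusted p = 0.00902). The groups did not overlap in Lhx1os, and its call was kept whichever library was left out but was lost over the libraries with Ttr under 100 CPM (0.0702).

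The stress and immune lists had 4 called genes, none of which kept its call whichever library was left out. Atf4, a transcription factor of the unfolded protein response, fell by 0.11 on the log2 scale (adjusted p = 0.0455), and its call was lost when any 1 of the 10 libraries was left out (0.0539 to 0.13). The rest of its list of 22 was not called by edgeR or DESeq2, and most members had positive values: 4 log2 fold changes were negative, the median was 0.20, and 3 genes were higher and 1 lower at an unadjusted p of under 0.05. H2-D1, a class I histocompatibility gene, had a log2 fold change of -0.24 (adjusted p = 0.0366), lost without any library other than replicate 3 of either group (0.0695 to 0.0902). Of the 15 histocompatibility genes 6 had negative log2 fold changes and the median was 0.09, and 1 was higher and 1 lower at an unadjusted p of under 0.05. Ch25h, cholesterol 25-hydroxylase, stood at 0.0537 to 0.201 CPM in wild type and 0.287 to 0.594 CPM with the substituted transgene (log2 fold change 1.61, adjusted p = 0.02), and its call was lost without replicate 1 or 4 of the substituted group or replicate 2 or 3 of wild type (0.054 to 0.065). Jund, an immediate early gene with 52.6% of its exon length in Gm11175, had a log2 fold change of 0.34 (adjusted p = 0.0331).

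Heat shock genes had no edgeR call among 21, but 20 of the 21 log2 fold changes were positive (median 0.11), 9 were higher and none lower at an unadjusted p under 0.05, and DESeq2 called 1 higher. Among 24 genes of cholesterol synthesis edgeR and DESeq2 called none, 21 log2 fold changes were negative (median -0.10), and 4 were lower and none higher at an unadjusted p under 0.05. The groups overlapped in the means of both lists. The heat shock mean ran from -0.15 to 0.13 in wild type and from 0.10 to 0.34 with the substituted transgene. The cholesterol synthesis mean ran from -0.11 to 0.12 in wild type and from -0.13 to -0.02 with the substituted transgene. At an unadjusted p under 0.05, 5.45% of all tested genes were higher and 6.28% lower. In all, 17 of the 38 lists, with 275 tested genes, held no edgeR call; at an unadjusted p under 0.05 these had 24 higher and 18 lower, and DESeq2 called 7.

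Of 18 genes of ATXN1 and its partners edgeR called 1 lower, Rora, and none higher. Only 4 of their log2 fold changes were negative, and the median was 0.02. At an unadjusted p under 0.05, 3 were higher and 1 lower, and DESeq2 called 2 higher and 1 lower. Of 34 genes of inherited ataxias 3 were lower, among them Car8. Rora and Car8 are described above. Cic stood at 300, 331, 332, 297 and 304 CPM in wild type and at 317, 320, 323, 314 and 336 CPM with the substituted transgene (log2 fold change 0.04, adjusted p = 0.779), and Atxn1l, a paralog of Atxn1 that also binds CIC, had a log2 fold change of 0.03 (adjusted p = 0.89). Both pairs of ranges overlapped. Of 20 tested CIC target genes edgeR called none, although at an unadjusted p under 0.05 there were 1 higher and 3 lower, and DESeq2 called 1 lower, and the median log2 fold change was -0.0068. Those with the smallest p were the ETS factor gene Etv4 (log2 fold change -0.31, adjusted p = 0.126) and the cyclin gene Ccnd1 (0.26, adjusted p = 0.163), in opposite directions.

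Promoters were searched for the octamers that CIC binds, TGAATGAA and TGAATGGA, and for AGGTCA, the core site bound by RORA and other nuclear receptors, on both strands of windows of 250 bases before and 50 after each start site (RefSeq, GRCm38.p6). Of the 190 lower genes 150 had a promoter in the table, 203 windows in all, and of the 33 higher genes 29 had one, 40 windows. TGAATGAA was found in 1 of the 203 windows (0.493%), in 1 of the 40 (2.5%) and in 0.893% of the 15567 windows of tested genes. TGAATGGA was found in 1 of the 203 (0.493%), in 0 of the 40, and in 0.732% of those of tested genes. AGGTCA was found in 12.3% of the windows of lower genes, 15% of those of higher genes and 12.7% of those of tested genes. The shares of AGGTCA in lower and tested genes were thus close to each other, and those of the octamers rest on single windows.

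The 3 windows of called genes that hold a CIC octamer are shown first, because they are the only ones among the called genes with a promoter in the table, and then those of Rgs8 and Pcp4, 2 Purkinje genes with an AGGTCA. Capitals mark the motif, which on the opposite strand reads as its reverse complement, and each window is given 5′ to 3′ along the gene: Kcnip1 at chr11:33843637-33843936 (minus strand), Amica1 at chr9:45078933-45079232 (plus strand), Mslnl at chr17:25735790-25736089 (plus strand), Rgs8 at chr1:153665423-153665722 (plus strand) and Pcp4 at chr16:96467356-96467655 (plus strand).
Kcnip1: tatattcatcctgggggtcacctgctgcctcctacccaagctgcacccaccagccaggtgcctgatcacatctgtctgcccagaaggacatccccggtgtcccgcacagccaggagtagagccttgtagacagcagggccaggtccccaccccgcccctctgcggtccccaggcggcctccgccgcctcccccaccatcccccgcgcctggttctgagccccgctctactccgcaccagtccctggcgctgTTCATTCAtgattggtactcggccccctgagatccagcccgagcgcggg
Amica1: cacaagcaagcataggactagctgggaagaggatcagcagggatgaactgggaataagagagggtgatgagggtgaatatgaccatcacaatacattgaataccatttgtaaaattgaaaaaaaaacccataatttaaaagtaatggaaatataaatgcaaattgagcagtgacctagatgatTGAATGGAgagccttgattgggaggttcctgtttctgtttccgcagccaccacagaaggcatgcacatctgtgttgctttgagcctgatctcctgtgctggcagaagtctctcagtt
Mslnl: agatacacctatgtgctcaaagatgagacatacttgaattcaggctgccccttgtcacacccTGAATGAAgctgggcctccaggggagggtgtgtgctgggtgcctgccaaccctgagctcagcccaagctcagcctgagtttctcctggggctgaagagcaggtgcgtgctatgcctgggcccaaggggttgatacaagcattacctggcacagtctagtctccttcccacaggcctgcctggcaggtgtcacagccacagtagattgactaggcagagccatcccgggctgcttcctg
Rgs8: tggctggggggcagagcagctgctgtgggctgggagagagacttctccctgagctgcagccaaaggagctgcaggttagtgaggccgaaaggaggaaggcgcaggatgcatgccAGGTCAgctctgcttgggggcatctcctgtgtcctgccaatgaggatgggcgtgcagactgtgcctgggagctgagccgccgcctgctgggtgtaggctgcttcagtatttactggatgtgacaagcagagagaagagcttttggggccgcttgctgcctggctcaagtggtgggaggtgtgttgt
Pcp4: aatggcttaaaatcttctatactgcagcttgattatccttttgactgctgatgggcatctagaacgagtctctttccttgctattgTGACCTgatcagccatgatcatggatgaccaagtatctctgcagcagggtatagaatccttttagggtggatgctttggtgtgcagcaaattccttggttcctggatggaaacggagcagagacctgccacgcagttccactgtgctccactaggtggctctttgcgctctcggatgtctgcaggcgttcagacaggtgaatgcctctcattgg

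The octamer lies next to the start site in Kcnip1, 67 bases before it in Amica1 and 188 bases before it in Mslnl, and a match describes the sequence and is no evidence of binding. Kcnip1 is the potassium channel partner described above. Amica1, a junctional adhesion gene, went from 5.93, 5.91, 5.44, 5.49 and 5.61 CPM to 4.45, 2.97, 3.97, 4.04 and 4.65 CPM (log2 fold change -0.50, adjusted p = 0.0301), and leaving out replicate 2 or 4 of the substituted group, or any 1 wild-type library, ended the call (0.0539 to 0.0836). Mslnl, a mesothelin-like gene, was higher, at 1.38, 0.484, 1.22, 0.857 and 0.655 CPM in wild type and 3.83, 2.44, 1.44, 2.59 and 2.16 CPM with the substituted transgene (log2 fold change 1.44, SE 0.277, adjusted p = 0.0108). Amica1 and Mslnl are named for the octamer, outside the rule for named genes.

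Beside the values of ATXN1[82Q] without the substitutions, compared with the same wild-type libraries, most of the changes were smaller. Rgs8 had a log2 fold change of -0.67 beside -2.24 in ATXN1[82Q], and the transgenic groups differed (difference 1.57, SE 0.118, edgeR adjusted p = 2.64e-07). Fgf7 had -1.06 beside -2.72 (difference 1.66, adjusted p = 6.62e-05), and Gchfr -1.67 beside -2.70 (difference 1.03, adjusted p = 0.00586). Between the transgenic groups 4454 genes differed at an adjusted p under 0.05, 28.1% of those tested. Of the 190 lower genes 149 were closer to wild type than in ATXN1[82Q] by this test, 4 were further from it and 37 did not pass. Of the 33 higher genes 13 were below ATXN1[82Q], 3 were above it and 17 did not pass. In the libraries with Ttr under 100 CPM 106 of the 223 genes differed between the transgenic groups, compared with 169 over all libraries.

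Some of the larger changes did not differ detectably between the transgenes. Mdfi had a log2 fold change of -1.17 beside -1.21 in ATXN1[82Q] (difference 0.04, SE 0.165, adjusted p = 0.869), and Lhpp -0.89 beside -0.69 (difference -0.21, SE 0.0874, adjusted p = 0.0849). Rtel1, a helicase gene chosen after its values were seen, had -0.61 beside -0.69 (difference 0.09, SE 0.0942, adjusted p = 0.53). Among the rises Creb5 had 0.79 beside 0.68 (difference 0.11, SE 0.139, adjusted p = 0.597), Tenm2 0.54 beside 0.63 (difference -0.09, adjusted p = 0.431) and Ptpn13 0.36 beside 0.42 (difference -0.06, adjusted p = 0.364). A difference that did not pass does not show equal levels.

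**Figure D5:**
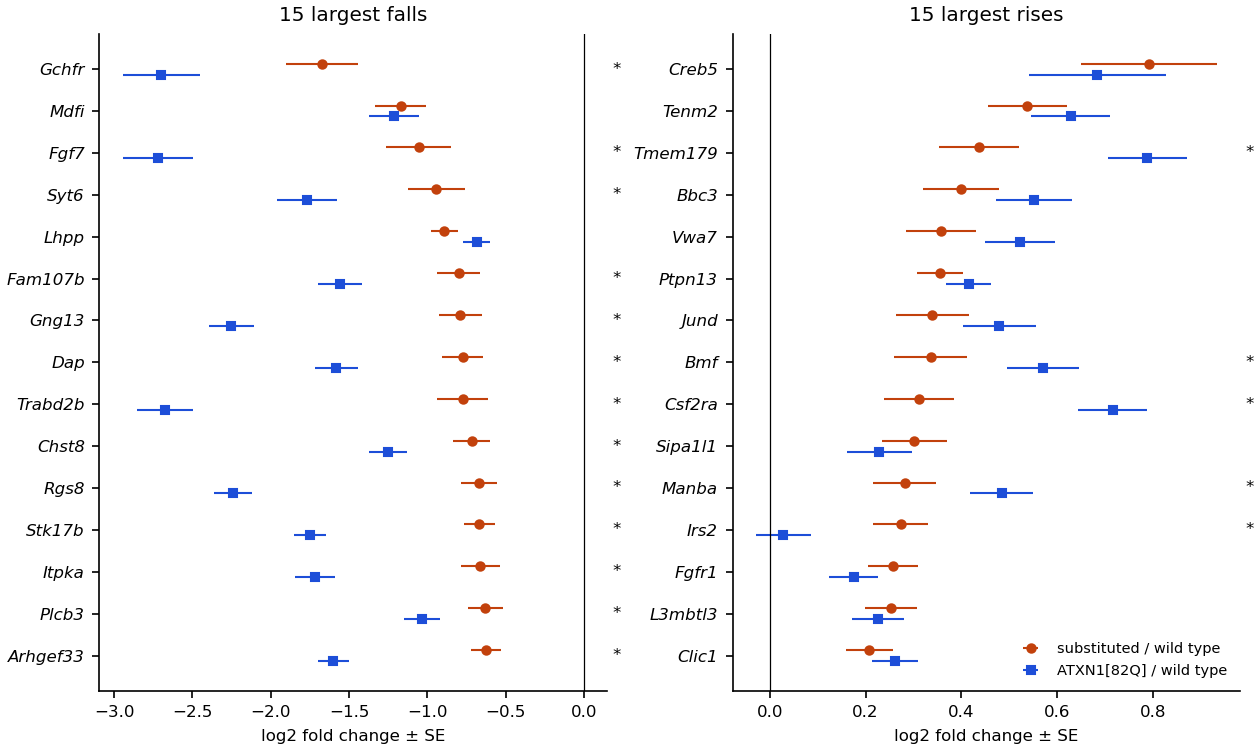
Log2 fold change against the same 5 wild-type libraries, with SE bars (horizontal axes), for the 15 largest falls and rises (vertical axes): red circles are the substituted transgene, blue squares ATXN1[82Q], and a star marks an edgeR adjusted p under 0.05 for the difference between them. Most falls, such as Rgs8 (-0.67 beside -2.24), are starred, while Mdfi and Lhpp among the falls and Creb5 and Tenm2 among the rises are not.

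In 7 called genes, chosen after their values were seen, the change was larger with the substituted transgene than in ATXN1[82Q]. Igip, which encodes a small secreted protein that promotes IgA production, went from 84.9, 74.5, 65, 71.1 and 81.2 CPM in wild type to 61.4, 60, 55.2, 59.7 and 59.4 CPM with the substituted transgene. The groups did not overlap, and its log2 fold change was -0.35 with the substituted transgene (SE 0.0612, adjusted p = 0.00524) and 0.04 in ATXN1[82Q], a difference of -0.39 (SE 0.0611, adjusted p = 0.000214). The call of Igip against wild type was kept whichever library was left out. The other lower genes of this kind were Prkcd (-0.24 and -0.02, adjusted p of the difference 0.00767), the phosphodiesterase gene Pde2a (-0.29 and -0.10, 0.0474), which shares 64.3% of its exon length with other genes, and the non-coding Snhg14 (-0.27 and -0.11, 0.0456). The higher ones were Irs2 (0.27 and 0.03, 0.00481), the zinc finger gene Zc3h4 (0.16 and -0.02, 0.00248) and the endocytic recycling gene Ehd1 (0.13 and -0.03, 0.00106). The calls of these 6 against wild type each depended on single libraries, as given above for Prkcd (0.0512 to 0.13) and Irs2 (0.0605 to 0.0645). Pde2a was lost without replicate 1, 2 or 4 of the substituted group or any wild-type library except replicate 4 (0.0512 to 0.121), and Snhg14 without replicate 2 or 4 of the substituted group or replicate 2 of wild type (0.0503 to 0.0709). Zc3h4 was lost without any library except replicate 4 of the substituted group and replicate 3 of wild type (0.052 to 0.135). Ehd1 was lost without replicate 1, 2 or 5 of the substituted group or any wild-type library except replicate 3 (0.071 to 0.126).

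Cck, a neuropeptide precursor gene, stood at 28.5, 25.9, 30.2, 28 and 24.2 CPM in wild type and at 12.3, 16, 23.9, 18.5 and 23.6 CPM with the substituted transgene. The groups did not overlap, but the difference missed the threshold (log2 fold change -0.54, SE 0.142, edgeR adjusted p = 0.083), while it passed without replicate 3 (0.0248) or 5 (0.0418) of the substituted group and by DESeq2 (0.00892). In ATXN1[82Q] its log2 fold change was -2.38, and the transgenic groups differed (difference 1.84, SE 0.155, adjusted p = 6.34e-07).

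The called genes were spread over the genome. On the autosomes and chromosome X the share of tested genes called ran from 0.533% on chromosome X to 2.15% on chromosome 7, beside the 1.41% of all tested genes, and on chromosome Y 0 of 4 were called. Of 273 windows of 10 Mb with a tested gene, 2 held 5 or more called genes, on chromosome 11 (5 of 178) and on chromosome 17 (6 of 186), and neither reached 4 times the overall share.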

How the data were processed

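RNA sequencing measured transcripts in cerebella. Per the labels' protocols, 10 ng of total RNA was amplified with poly(A) and random priming, the product was sheared for inserts of 400 bp, and a HiSeq 2500 was used. STAR 2.5.3a, HTSeq, DESeq2 and the mm10 build stand in the submitters' processing notes. The deposited values are raw counts per gene, with annotation, strand setting and counting mode not given in the sources used here. Genes whose exons overlap may share or lose counts. Reads outside genes (16.8% to 18.2%), ambiguous ones (1.18% to 1.25%) and multiply aligned ones (12.8% to 14.6%) stayed out of library sizes.

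Libraries were grouped by genotype label. Within a genotype every pair of libraries differed by more than sampling noise (chi-square over its degrees of freedom, 5.49 to 30.9). The edgeR 4.0.16 quasi-likelihood F-test (R 4.3.3) was fitted on all 15 libraries together, with one mean for each genotype, TMM scaling and filterByExpr at a minimum count of 10, and p-values were adjusted by Benjamini-Hochberg over 15843 genes. The biological coefficient of variation common to all genes was 0.102, and a prior count of 2 entered log2 CPM. The labels name no molecular identifiers, so reads are not independent molecules, and p-values cover only the spread between libraries. Positions came from GENCODE M21 (GRCm38), where 23376 of 24421 symbols were found directly and 677 through a synonym, and promoters from the RefSeq table for GRCm38.p6.

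Named genes were the 15 largest falls and 15 largest rises that were called, protein coding, at or above 2 in mean log2 CPM and without overlap of the groups. Up to 6 called members of each of 38 gene lists, and Atxn1, Atxn1l, Cic, Pcp2, Calb1, Itpr1, Cck, Ttr and Xist, were added. Some genes that this rule takes go unreported. The lists and rules were chosen with earlier results of these data known. Genes outside this rule, such as list members without a call, Rtel1, Igip, Amica1 and Mslnl, were chosen after their values were seen.

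Other settings tried were DESeq2 1.42.0, size factors by RLE, no filter on low counts, a fit of the 2 genotypes alone, a replicate block, each library left out, Ttr or Xist as a covariate, and libraries with Ttr under 100 CPM alone. In data simulated for this comparison (15843 genes) 41 of 50 genes changed 1.5-fold were called, 47 of 50 changed 2-fold and 49 of 50 changed 3-fold, with 4 false calls among 164. The simulation gave every gene the same coefficient of variation, 0.102, and all libraries of a group the same expected level. Its recovery and false calls may therefore not hold for the real counts.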

Additional observations from a re-analysis of the deposited data

Results flagged for a closer look

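In 11 of 204 groups of 5 libraries, of single genes or of list means, the highest or lowest library lay far from the other 4, with a gap of over 0.71 of the whole range; chance gives about 1 in 20 such groups. In replicate 3 of the substituted group Calb1 stood at 912 CPM (741 to 785 in the others), Kcnab1 at 155 CPM (122 to 130) and Gnai1 at 208 CPM (195 to 198), each nearer to wild type. In wild type, Gchfr stood at 13.1 CPM in replicate 1 (11.3 to 11.6 in the others), Trabd2b at 42.9 CPM (33.5 to 35.7) and Plcb3 at 112 CPM (86 to 91.5) in replicate 2, and Ttr at 3793 CPM in replicate 5 (4.26 to 1090). Among the list means relative to wild type, heat shock genes stood at 0.34 in replicate 5 of the substituted group (0.10 to 0.13 in the others) and circadian clock genes at 0.0622 in the same library (-0.05 to -0.02). The cholesterol synthesis mean was -0.0189 in replicate 4 of the substituted group (-0.13 to -0.11 in the others). The only red blood cell gene tested was -0.71 in replicate 3 of wild type (0.08 to 0.26 in the others).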

How the results depend on the processing

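The count of 223 called genes was 224 with RLE size factors, 212 without the count filter, 178 with only the 2 genotypes in the fit, 252 with Ttr and 242 with Xist as a covariate, and 149 in the libraries with Ttr under 100 CPM. DESeq2 called 413 genes, 311 lower and 102 higher. With 1 library left out the count ran from 136 to 307, with 120 to 258 lower and 15 to 49 higher; the lower count fell to 120 and 125 without replicate 2 and 4 of the substituted group, and the higher count to 15, 16 and 17 without replicates 1, 2 and 4 of that group and to 16 without replicate 2 or 4 of wild type. Only 11 genes were higher in the libraries with Ttr under 100 CPM. Of the 223 genes 169 differed between the transgenic groups, 106 in those libraries and 157 to 170 with 1 library left out. Purkinje markers ran from 17 to 20 lower and metabotropic glutamate and calcium genes from 10 to 14 with 1 library left out, and DESeq2 gave 21 and 15. Replicate numbers were treated as names. Among same-numbered pairs 0 of 5 had deviations correlated above 0.1, and 0 of 5 libraries correlated best with their own number. These correlations run over all tested genes and could miss a small effect shared by libraries of the same number. The replicate block gave 174 calls, 161 of them among the 223. None of the called named genes changed sign under any of these alternatives. All of these reuse some or all of the 10 libraries that chose the genes, so a kept sign says little. Of the 56 named called genes, 35 kept their call whichever library was left out. Of these 56, calls were lost in 21 in the libraries with Ttr under 100 CPM, 11 with only the 2 genotypes in the fit, 7 with the replicate block, 2 without the count filter and 1 with either covariate, and in none with DESeq2 or RLE size factors. In the simulated data 23 of 50 genes at the smallest fold were recovered. The simulation gave every gene the same coefficient of variation, so the recovery of such small changes in the real counts is not known. The causes of these shifts were not tested.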
